A study of Mus musculus with 15 samples.

Results

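In the mouse aorta, 3952 of 128019 cells were B cells with RNA for both Ighd, the constant region of immunoglobulin D, and Fcer2a, the low-affinity IgE receptor CD23. They were chosen by their unique molecular identifier (UMI) counts: at least 3 of the 5 B cell genes Cd79a, Cd79b, Ms4a1, Pax5 and Bank1 with a UMI, at least 2 Ighd UMIs, at least 1 Fcer2a UMI, no UMI of the T cell genes Cd3e and Cd3d, the endothelial gene Cdh5 or the macrophage gene Csf1r, and at most 1 UMI of the fibroblast genes Lum and Pdgfra together. The levels of these 13 genes were used to choose the cells and are given as a description only. They are called Ighd Fcer2a B cells here. A total of 11669 cells met the B cell and exclusion criteria, and the 7717 that lacked 2 Ighd UMIs, an Fcer2a UMI or both are called other B cells.

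The study compared aortas of young and old C57BL/6N mice given vehicle or fisetin, a plant flavonoid tested as a senolytic. Fisetin was given by oral gavage at 100 mg per kg per day, intermittently, in weeks of dosing parted by weeks without. Mice were killed at least a week after the last dose. Single-cell RNA was measured in 15 libraries: young vehicle (Y VEH, females F1 and F2, males M1 and M2), young fisetin (Y FIS, F1, F2, M1 and M2), old vehicle (O VEH, F1, F2 and M1) and old fisetin (O FIS, F1, F2, M1 and M2). Old mice were aged 27 months, and the young age is 3 months in the labels and 6 months in the methods. No group carried a transgene, perivascular fat was removed, and live cells were sorted after enzymatic digestion. Each library pooled 3 mice according to the labels, while the methods of the paper also allow fewer than 3. The spread between single mice is therefore not seen, and p-values measure the spread between pooled libraries.

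Follicular B cells are the recirculating, resting B cells of blood, lymph node and spleen. They carry IgM and IgD of the same specificity together with CD23 and the complement receptor CD21 (Cr2), and they enter follicles through the chemokine receptor Cxcr5. B1 cells, marginal zone cells, age-associated B cells and plasma cells have little IgD or CD23 and make up other parts of the B cell compartment.

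The libraries held between 33 and 909 Ighd Fcer2a B cells, with 3125 in young and 827 in old libraries. Of the 15 libraries, 4 had under 100 such cells: O VEH F1 (65), O VEH F2 (48), O FIS F2 (33) and O FIS M1 (93). The median UMI count of these cells per library lay between 3747.5 and 8992 in young and between 5190 and 7594 in old libraries, so the depths of the 2 ages overlapped. The median share of mitochondrial UMIs lay between 2.8 and 5.52%. No 2 libraries shared more than 49 cell barcodes, and over all 105 pairs of libraries 2 barcodes of Ighd Fcer2a B cells were shared.

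At the edge of the choice, 744 cells had exactly 2 Ighd UMIs, 1364 had exactly 1 Fcer2a UMI and 29 had 3 of the 5 B cell genes. Just outside it, 596 B cells had 1 Ighd UMI with an Fcer2a UMI and 2218 had 2 or more Ighd UMIs without an Fcer2a UMI. A further 3105 B cells had neither transcript. The chosen cells had a median of 4 Ighd UMIs and 2 Fcer2a UMIs.

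Follicular genes that the rule did not use were found in 34.8 to 99.2% of the cells. Foxp1, a transcription factor of quiescent lymphocytes, had a UMI in 99.2% of the cells and Klf2, which controls the recirculation of lymphocytes, in 88.2%. Cr2, which encodes CD21, had a UMI in 59.0%, the BAFF receptor gene Tnfrsf13c in 65.4%, Cxcr5 in 45.6% and Ccr7, which guides naive lymphocytes to lymph nodes, in 34.8%. Immunoglobulin M was near universal, with an Ighm UMI in 99.6% of the cells. In 10.5% of the cells Ighd UMIs outnumbered Ighm UMIs, and in 2 cells the switched constant genes outnumbered Ighm and Ighd together.

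Shares of cells with a UMI depend on depth and on free RNA, so all cells with at least 1000 UMIs were also thinned to that number. Cr2 was then found in 20.3% of Ighd Fcer2a B cells, 7.45% of other B cells and 0.318% of T cells, where it is not made. Ccr7 was found in 8.38% of Ighd Fcer2a B cells, 4.52% of other B cells and 6.69% of T cells. The other follicular genes were found in shares close to those of other B cells, at 44.0 against 44.0% for Klf2, 10.8 against 10.3% for Cxcr5, 18.7 against 16% for Tnfrsf13c and 80.3 against 73.6% for Foxp1. Other B cells had the higher shares for Fcrl5 (8.22% against 1.70%), an Fc receptor-like gene of marginal zone and age-associated B cells, for Bhlhe41 (6.55% against 0.607%), a transcription factor of B1 cells, and for Jchain (7.34% against 1.54%), the joining chain of secreted IgM and IgA. Mki67, a gene of cycling cells, was found in 0.278% of Ighd Fcer2a B cells and 2.20% of other B cells. Not every marker of other B cell types differed this way. Zbtb32 (0.506% against 5.88%) and Cd9 (2.83% against 7.56%) did. Shares were close for the age-associated gene Tbx21 (0.354% against 0.355%) and the marginal zone gene Dtx1. The marginal zone gene Myof (1.32% against 1.1%) and the germinal centre gene Bcl6 (5.34% against 4.47%) had higher shares in Ighd Fcer2a B cells. Without thinning, 1.57% of the Ighd Fcer2a B cells had an Mki67 UMI, with 0 to 2.86% in young libraries and 0.392 to 9.09% in old ones, where O VEH F1 (6.15%) and O FIS F2 (9.09%) were highest.

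Levels in counts scaled to a library total of 1e6 (CPM) of the UMIs summed over the cells of each library give the same picture. Ighd had 730 ± 124 CPM (mean ± SD, n = 15 libraries) against 175 CPM in other B cells and 3.02 in T cells, and Fcer2a had 358 ± 79.7 CPM against 42.4 and 0.852. Cr2 had 207 ± 101 CPM against 69.4 and 1.61. Apart from both genes of the rule, the genes with the highest ratio to other B cells included Satb1, a chromatin organiser (257 against 76.0 CPM, with 770 in T cells), Lrrk2, a kinase gene (325 against 102 CPM), Stat4, a signal transducer of interleukin-12 (166 against 53.3 CPM, with 307 in T cells), Ccr6, a chemokine receptor gene (103 against 33.9 CPM), and Zfp318, which is required for IgD expression (115 against 38.8 CPM). Against T cells the highest ratios included Fcmr, the IgM Fc receptor (670 against 0.989 CPM), Vpreb3 (174 against 0.365 CPM), Siglecg, an inhibitory lectin (227 against 0.638 CPM), and the B cell adaptor Blnk (495 against 1.49 CPM). Ighm was lower than in other B cells, with 2108 ± 452 against 11940 CPM. These ratios describe cells that were split by their own RNA and were not tested.

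**Figure D1:**
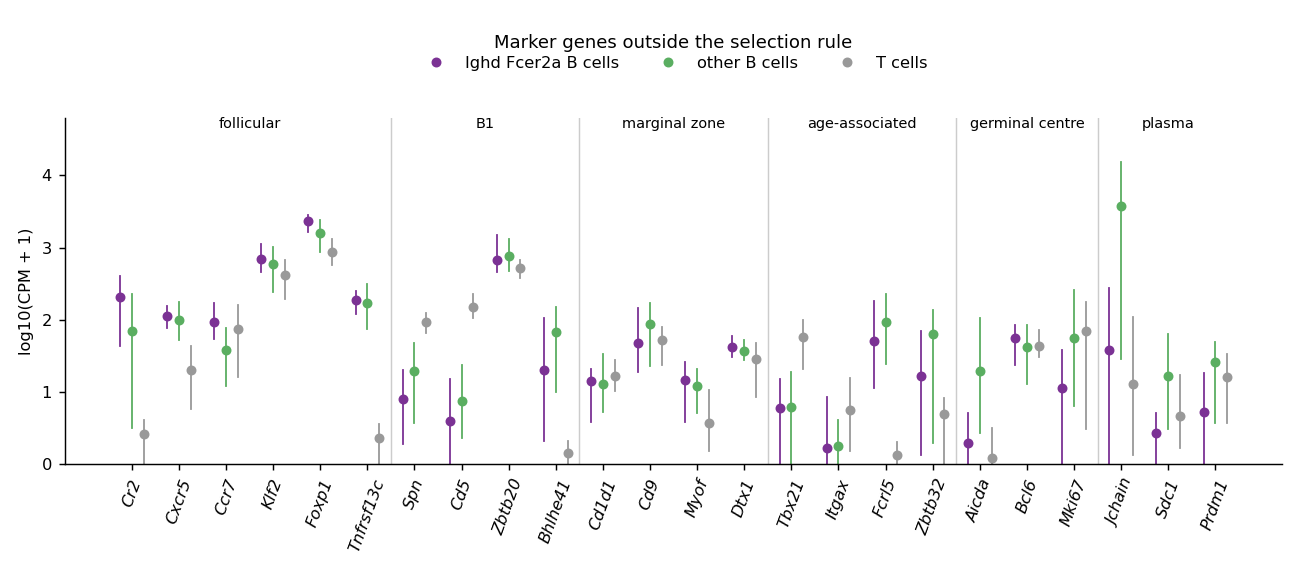
Level of marker genes outside the selection rule, as log10(CPM + 1), in Ighd Fcer2a B cells, other B cells and T cells. Points are means over 15 libraries and lines run from the lowest to the highest library; Cr2 and Ccr7 have higher means in Ighd Fcer2a B cells than in other B cells, and Jchain, Bhlhe41 and Zbtb32 lower ones.

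Markers of other B cell types were not spread evenly over the libraries. At least 2 of the 4 B1 markers Spn, Cd5, Zbtb20 and Bhlhe41 had a UMI in 32.3% of the cells of O VEH F1 and 42.4% of those of O FIS F2, against 1.79 to 12.9% in the other libraries. Zbtb20 had a UMI in 81.9% of all Ighd Fcer2a B cells and, thinned, in 39.0% of T cells, so this share is close to that of cells with any of the other 3 markers. Bhlhe41 alone had a UMI in 30.8% of the cells of O VEH F1 and 39.4% of those of O FIS F2. At least 2 of the 4 age-associated markers Tbx21, Itgax, Fcrl5 and Zbtb32 had a UMI in 15.4% of the cells of O VEH F1, 27.3% in O FIS F2 and 8.33% in O VEH F2, against 0.218 to 4.53% in the others. These 3 libraries are old and female and hold 65, 33 and 48 Ighd Fcer2a B cells. Some genes listed as markers of other cell types were also high in these libraries. Summed over 6 adrenal cortex genes, the cells had 140 CPM in O VEH F1 and 103 CPM in O FIS F2, against 2.19 to 19.6 CPM in the other libraries, with Cyp11b1 and Mc2r at 0 throughout. Cyp11a1, a gene of the adrenal cortex list, reached 135.5 CPM in Ighd Fcer2a B cells of the highest old library. Its mean over old libraries was 34.6 ± 57.0 CPM in Ighd Fcer2a B cells and 45.2 CPM in other B cells. It was lower outside B cells, with 1.36 CPM in T cells and 6.11 CPM in cells that were neither. Summed over 8 macrophage genes the Ighd Fcer2a B cells had 1159 CPM in O VEH F1, 1034 CPM in O VEH F2 and 885 CPM in O FIS F2, against 1169 CPM in Y VEH F1 and 196 to 677 CPM in the others. The part of RNA from other cells in these shares was not tested. Cr2 was lowest in O VEH F1 (49.2 CPM) and O FIS F2 (43.0 CPM) and lay between 75 and 402 CPM in the other libraries. Over all libraries, at least 2 of 4 marginal zone markers had a UMI in 9.03% of the cells, at least 2 of 3 germinal centre markers in 0.810% and at least 2 of 3 plasma cell markers in 0.380%.

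**Figure D2:**
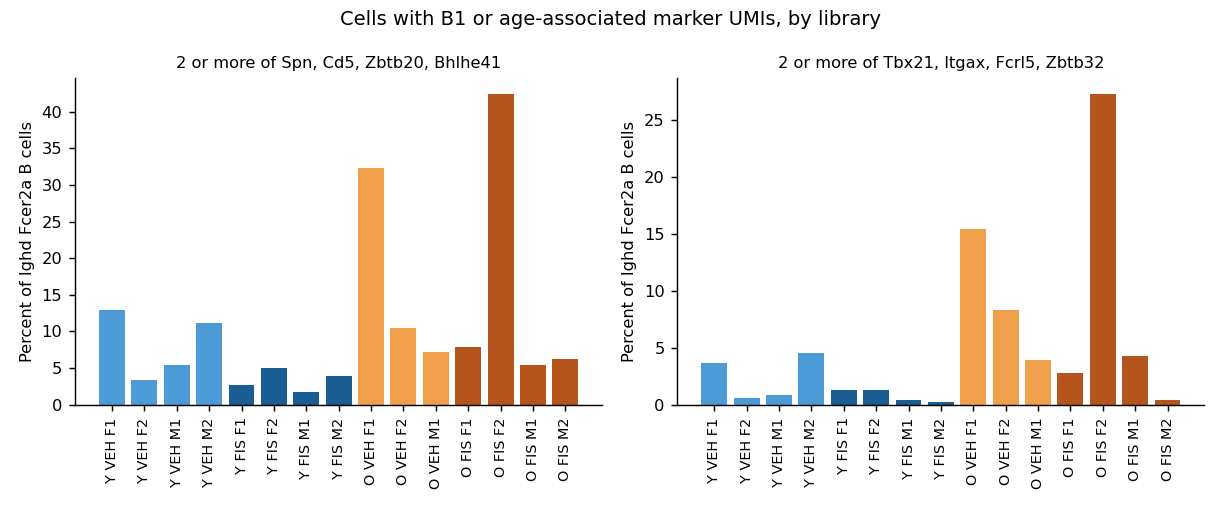
Percent of Ighd Fcer2a B cells with a UMI of at least 2 of 4 B1 markers (left) and at least 2 of 4 age-associated markers (right), 1 bar per library, coloured by group. O VEH F1 and O FIS F2 stand above all other libraries in both panels.

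Other libraries stood apart in other genes. In O FIS F1, 50.8% of the cells had a Jchain UMI, and Ighg2b, the constant region of immunoglobulin G2b, reached 3817 CPM against 0 to 18.6 CPM in the other libraries. In only 0.559% of the cells of O FIS F1 did switched constant genes outnumber Ighm and Ighd together. Whether the Ighg2b level came from few cells was not tested. S100a6, a calcium-binding protein gene, had 1503 CPM in Y VEH F1 and 1383 CPM in Y VEH M2, against 68.9 to 350 CPM in the other libraries. Summed over 5 erythroid genes, the cells of young libraries had 32.3 to 19690 CPM and those of old libraries 95.04 to 1105 CPM.

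Ighd Fcer2a B cells made up a smaller share of the B cells in old than in young aortas. The share was 22.8, 49.9, 54.8 and 50.1% in Y VEH F1, F2, M1 and M2, and 48.2, 47.7, 40.3 and 58.0% in Y FIS F1, F2, M1 and M2. It was 14.7, 5.98 and 25.3% in O VEH F1, F2 and M1, and 19.2, 3.08, 30.5 and 38.8% in O FIS F1, F2, M1 and M2. Both young groups lay above 40% apart from Y VEH F1, which overlapped the old libraries. The mean was 46.5% ± 10.9 (SD, n = 8) in young and 19.7% ± 12.9 (n = 7) in old libraries, a difference of -26.8 percentage points (exact permutation test over libraries, two-sided, p = 0.00171, Benjamini-Hochberg adjusted p = 0.0326 over 20 tests of shares).

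The same direction was found among all cells. The share lay between 2.19 and 12.4% in young libraries with a median of 3.63%, and between 0.47 and 2.80% in old libraries with a median of 1.02%. Of the old libraries, O FIS M2 at 2.80% lay inside the young range and O FIS F1 at 2.17% just below it. The means were 4.78% ± 3.35 (n = 8) and 1.38% ± 0.896 (n = 7), which differed by -3.39 percentage points (exact permutation test, p = 0.00326, adjusted p = 0.0326). B cells of all kinds made up 10.3% ± 5.94 of young and 8.38% ± 3.86 of old cells, ranges that overlapped. B cells with neither Ighd nor Fcer2a made up 15.6% of young B cells (8.48 to 33.5%) and 38.4% of old B cells (19 to 63.1%).

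Within sexes the direction was kept. Among B cells of females the mean was 10.8% in 4 old and 42.2% in 4 young libraries (exact permutation test, p = 0.0286, the smallest p that 4 against 4 allows). Among B cells of males it was 31.5% in 3 old and 50.8% in 4 young libraries (exact permutation test, p = 0.0571). In vehicle-treated mice alone, the means among B cells were 15.4% ± 9.69 in O VEH and 44.4% ± 14.6 in Y VEH (exact permutation test, p = 0.0857, adjusted p = 0.214), and 3 against 4 libraries cannot go below p = 0.0286. Cells were also thinned to 1000 UMIs before the choice, which left 259 cells. Cells with fewer UMIs were dropped, also from the totals. The age difference was then -1.72 percentage points of B cells (exact permutation test, p = 0.0101) and -0.205 of all cells (exact permutation test, p = 0.00948). With thinning to 3000 UMIs, a depth chosen after seeing the data, it was -16.5 percentage points of B cells (exact permutation test, p = 0.00264) and -2.29 of all cells (exact permutation test, p = 0.0042). At 3000 UMIs, 8083 of the 14805 cells of Y FIS M1 were kept, so the totals changed by library. Without the 4 libraries with under 100 of these cells, all of them old, the difference among B cells was -18.7 percentage points (exact permutation test, p = 0.0242) and that among all cells -2.51 (exact permutation test, p = 0.212). That omission removes libraries by the number of cells that the share itself counts.

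**Figure D3:**
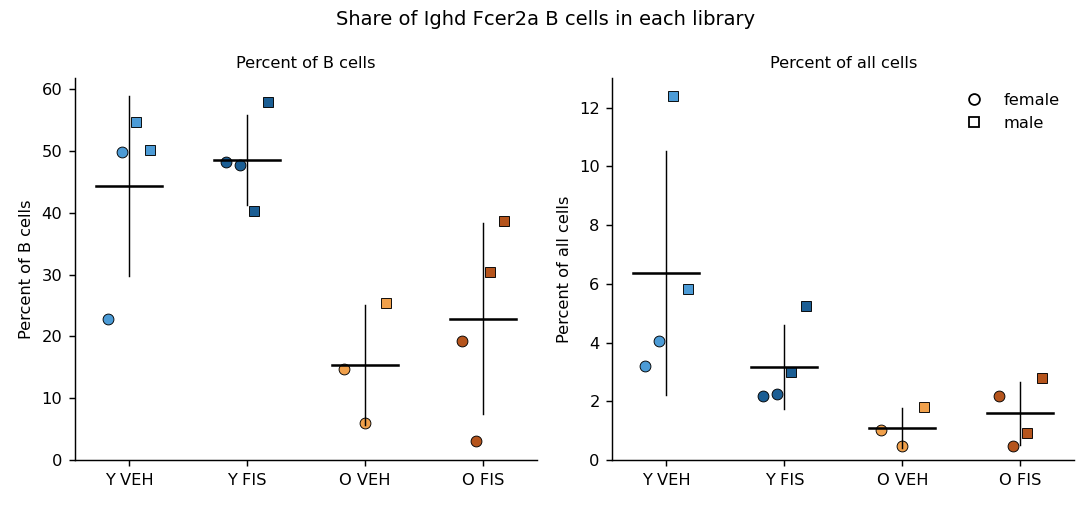
Share of Ighd Fcer2a B cells in each library, in percent of B cells (left) and of all cells (right), by group. Points are libraries (circles female, squares male), horizontal lines are means and vertical lines span 1 SD on either side (not below 0); the old libraries lie at 3.08 to 38.8% of B cells and the young at 22.8 to 58.0%.

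No fisetin difference in these shares passed the test. Among B cells, O FIS had 22.9% ± 15.4 (n = 4) and O VEH 15.4% ± 9.69 (n = 3), which differed by 7.54 percentage points (exact permutation test, p = 0.486). In young mice the means were 48.6% ± 7.27 in Y FIS and 44.4% ± 14.6 in Y VEH, which differed by 4.14 percentage points (exact permutation test, p = 0.743). Among all cells the differences were 0.491 percentage points in old (exact permutation test, p = 0.543) and -3.20 in young mice (exact permutation test, p = 0.171). The libraries of treated and control mice overlapped in each of these comparisons.

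The light chain was lambda, by Iglc1, Iglc2 and Iglc3 UMIs above Igkc UMIs, in 351 of the 3952 cells. The lambda share was 9.96, 8.15, 9.79 and 9.07% in Y VEH F1, F2, M1 and M2, and 9.27, 13.8, 8.97 and 10.0% in Y FIS F1, F2, M1 and M2. It was 12.3, 8.33 and 8.44% in O VEH F1, F2 and M1, and 3.91, 3.03, 8.60 and 3.53% in O FIS F1, F2, M1 and M2. The lowest 3 values are all O FIS libraries, of which F2 had 1 lambda cell among 33. The mean was 9.89% ± 1.71 in young and 6.88% ± 3.46 in old libraries (exact permutation test, p = 0.0606, adjusted p = 0.214), and 4.77% ± 2.58 in O FIS against 9.69% ± 2.26 in O VEH (exact permutation test, p = 0.114, adjusted p = 0.254). In vehicle-treated mice alone the mean was not lower in old libraries, with 9.69% in O VEH and 9.24% in Y VEH. Over both treatments and with 1 library left out, the age difference ran from -3.91 to -2.37 percentage points. It was -3.91 without O VEH F1 (exact permutation test, p = 0.00133) and -2.37 without O FIS F2 (exact permutation test, p = 0.124). Within sexes it was -2.61 in males (exact permutation test, p = 0.0286, the smallest that 3 against 4 allows) and -3.41 in females (exact permutation test, p = 0.229).

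For gene expression, UMIs were summed over the Ighd Fcer2a B cells of each library and edgeR's quasi-likelihood model was fitted to 9448 genes outside the rule. Called genes had a Benjamini-Hochberg adjusted p below 0.05 and moved by over 0.25 on the log2 scale. Between O VEH and Y VEH 3 genes were called (0.0318% of those tested), all lower in O VEH, and 985 (10.4%) had an unadjusted p under 0.05. Higher calls appeared under other settings, with 10 higher and 5 lower without O VEH M1, 5 higher and 4 lower without O FIS F2, 1 higher and 3 lower with RLE normalization, 34 higher and 48 lower by DESeq2, and 147 higher and 150 lower by edgeR without the filter on low counts. Between all old and all young libraries 7 genes were called (0.0741%), 4 lower and 3 higher in old, and 1029 (10.9%) had an unadjusted p under 0.05. Both the count and its balance moved with the settings. There were 36 higher and 13 lower without O FIS F1, 30 higher and 9 lower without O VEH M1, 7 higher and 4 lower with RLE normalization, 72 higher and 31 lower by DESeq2, and 229 higher and 195 lower without the filter on low counts. Without any one of 8 other libraries 3 or 4 genes were called, of which 0 or 1 were higher. The libraries of both ages did not overlap for 20 of the 9448 genes (0.212%).

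Cmss1, the homologue of a yeast gene of the small ribosomal subunit, was lower in old cells (GRCm39, chr16:57122363-57427253, minus strand). It had 3378, 2894, 3076 and 3357 CPM in Y VEH F1, F2, M1 and M2 and 853, 595 and 1088 CPM in O VEH F1, F2 and M1. Each O VEH library lay below every Y VEH library, with a log2 fold change of -1.89 (SE 0.22, edgeR adjusted p = 0.00105). Over both treatments the means were 1267 CPM in old and 2867 CPM in young libraries without overlap, with a log2 fold change of -1.29 (SE 0.14, edgeR adjusted p = 0.00053).

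Cdk8, a kinase of the Mediator complex (chr5:146167823-146241320, plus strand), had 593, 550, 539 and 704 CPM in the Y VEH libraries and 281, 131 and 165 CPM in the O VEH libraries. The log2 fold change was -1.64 in vehicle-treated mice (SE 0.21, edgeR adjusted p = 0.00317) and -1.23 over both treatments (SE 0.14, edgeR adjusted p = 0.00053), with no overlap between ages. Lars2, the mitochondrial leucyl-tRNA synthetase (chr9:123195952-123291731, plus strand), had 289, 252, 273 and 300 CPM in Y VEH and 112, 97.8 and 118 CPM in O VEH. Its log2 fold change was -1.34 in vehicle-treated mice (SE 0.19, edgeR adjusted p = 0.00644) and -0.97 over both treatments (SE 0.13, edgeR adjusted p = 0.00213), where O FIS F1 at 213 CPM overlapped the young range. Camk1d, a calmodulin-dependent kinase (chr2:5298268-5719375, minus strand), was called over both treatments alone, with 619 CPM in old and 982 CPM in young libraries (log2 fold change -0.69, SE 0.12, edgeR adjusted p = 0.0496).

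These 4 genes belong to a list of 7 library-linked genes that was drawn up from earlier results of these data, so their direction is not independent evidence. They were lower in the other cells of the same libraries too. Cmss1 had 1090 against 2414 CPM in other B cells of old and young libraries, 1347 against 3318 CPM in T cells and 1642 against 3390 CPM in cells that were neither. The log2 differences between old and young T cells were -1.41 for Cmss1, -1.26 for Cdk8, -1.08 for Lars2 and -0.74 for Camk1d. The age difference in Ighd Fcer2a B cells minus that in T cells was 0.08 for Cmss1, 0.00 for Cdk8, 0.06 for Lars2 and 0.01 for Camk1d on the log2 scale (edgeR, SE 0.10, 0.10, 0.11 and 0.10), and none of these differences was called. The labels name no batch for the libraries, so age and the handling of each library cannot be told apart for these genes.

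The 3 genes that were higher in old cells were less abundant. Gm56906, a long noncoding RNA (chr17:21695009-21700877, plus strand), had 16.6 to 39.4 CPM in young libraries and 45.0 to 153 CPM in old libraries without overlap (log2 fold change 1.32, SE 0.23, edgeR adjusted p = 0.0476). Stoml1, a stomatin-like membrane protein gene, had 12.2 to 21.6 CPM in young and 20.4 to 64.1 CPM in old libraries (log2 fold change 1.09, SE 0.20, edgeR adjusted p = 0.0496). Ccl8, a chemokine gene of macrophages, had 0 to 1.90 CPM in young and 1.29 to 19.6 CPM in old libraries (log2 fold change 3.79, SE 0.66, edgeR adjusted p = 0.0476). In cells that were neither B nor T cells, Ccl8 had 2.48 to 21.6 CPM in young and 23.3 to 86.9 CPM in old libraries, and the part of free RNA in its difference was not tested. Stoml1 and Ccl8 overlapped between ages and were added after their values had been seen. In other B cells the log2 fold changes of old over young were 0.93 for Gm56906, 1.41 for Stoml1 and 3.49 for Ccl8. In T cells they were -0.28, -0.39 and 3.33. Without the 4 libraries with under 100 cells, 6 of 11524 genes were called in Ighd Fcer2a B cells, 2 higher and 4 lower in old. Of the genes named above, Cmss1 (-0.96) and Cdk8 (-1.25) were still called. Gm56906 (1.00), Stoml1 (0.65), Ccl8 (3.79), Lars2 (-0.78) and Camk1d (-0.50) were not, with edgeR adjusted p-values from 0.155 to 0.278.

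**Figure D4:**
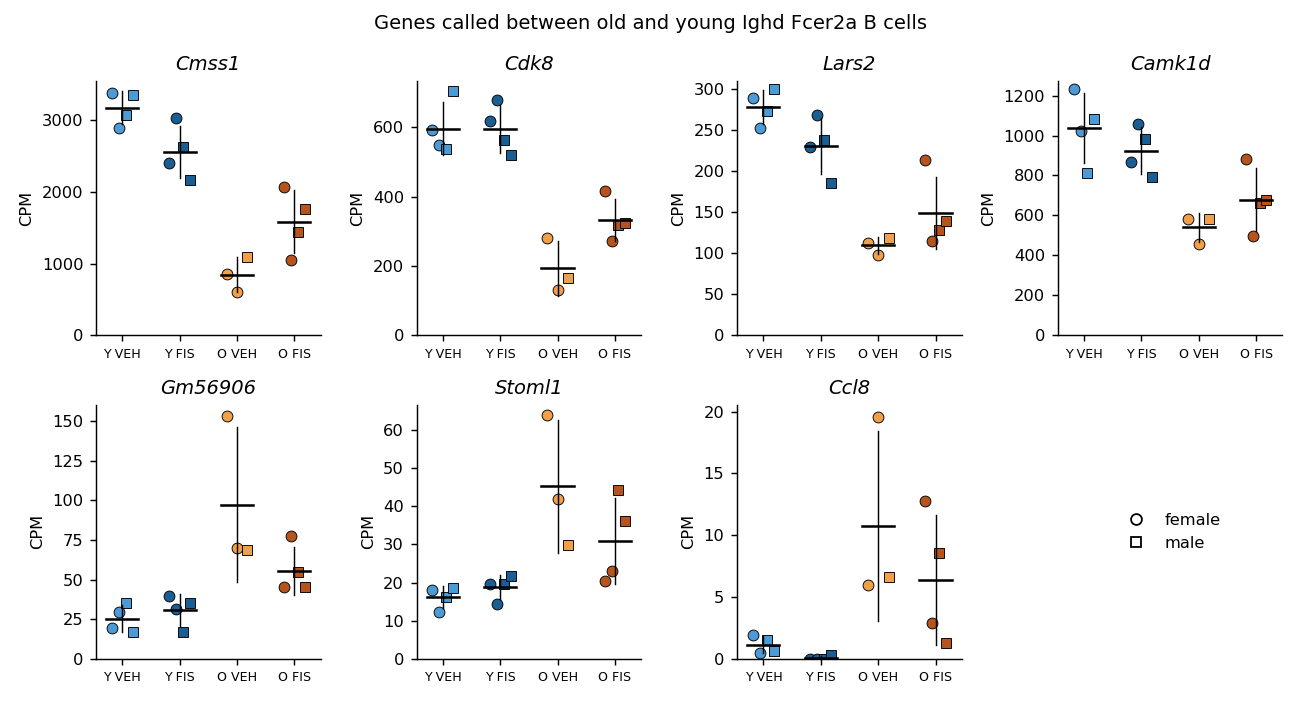
Level in CPM of the 7 genes called between old and young Ighd Fcer2a B cells, by group. Points are libraries (circles female, squares male), horizontal lines are means and vertical lines span 1 SD on either side (not below 0); the old libraries of Cmss1, Cdk8 and Gm56906 do not overlap the young.

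No gene of the B cell lists was called with age. None of the 18 genes of the B cell receptor and its co-receptors was called, with a median log2 fold change of -0.06 against 0.00 over all genes tested. The same was found for 20 genes of receptor signalling (-0.03), 18 B cell transcription factors (-0.05), 18 genes of class II antigen presentation (-0.09), 17 homing genes (0.08) and 17 survival and BAFF receptor genes (-0.04). Cr2 had a log2 fold change of -0.92 (SE 0.27, edgeR adjusted p = 0.20) and Ighm one of 0.17 (SE 0.12, edgeR adjusted p = 0.62). Bach2, a repressor that holds B cells back from plasma cell fate, had 1656 ± 466 CPM in old and 1583 ± 313 CPM in young libraries.

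Some lists had medians above that of all genes while no member was called. In the list of 16 class I antigen presentation genes the median was 0.20, and 6 had an unadjusted p under 0.05, all higher in old, where 5.94% of all genes were higher at that level. They included H2-Q6 (0.53), H2-K1 (0.28) and the peptide transporter gene Tap1 (0.42). Of 31 interferon-induced genes with a median of 0.20, 4 were higher at an unadjusted p under 0.05, among them the guanylate-binding protein gene Gbp7 (0.81, SE 0.17, edgeR adjusted p = 0.0699).

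The list of B1 and marginal zone genes had a median of 0.65 over 14 genes, 7 of them higher and 1 lower at an unadjusted p under 0.05 (4.95% of all genes were lower), and the list of age-associated B cell genes one of 0.54 over 16 genes, 5 of them higher. Spn, which encodes CD43 of B1 cells, had 0.897 to 5.23 CPM in young and 5.59 to 19.4 CPM in old libraries, and did not overlap (log2 fold change 1.74, SE 0.37, edgeR adjusted p = 0.0757). Fcrl5 had 12.6 to 34.8 CPM in young libraries, 180 CPM in O VEH F1, 183 CPM in O FIS F2 and 10.3 to 72.7 CPM in the other old libraries (log2 fold change 1.44, SE 0.45, edgeR adjusted p = 0.223). Bhlhe41 had 104 CPM in O VEH F1, 77.4 CPM in O FIS F2 and 1.09 to 25.2 CPM in all other libraries (log2 fold change 1.66, SE 0.61, edgeR adjusted p = 0.308). These 3 genes had higher means in old than in young other B cells too. There Spn had 27.1 against 11.1 CPM, Fcrl5 142 against 49.4 CPM and Bhlhe41 104 against 35.9 CPM.

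No member of the lists of other cell types was called. At an unadjusted p under 0.05, 5 of 8 fibroblast genes (median log2 fold change -0.99), 4 of 5 smooth muscle genes (-2.30) and 5 of 5 erythroid genes (-3.37) were lower in old, where 4.95% of all genes were lower, and 2 of 8 macrophage genes (0.84) were higher, where 5.94% of all genes were higher. Summed over all members, fibroblast genes had 344 to 1524 CPM in young and 103 to 573 CPM in old libraries. Macrophage genes had 196 to 1169 CPM in young and 287 to 1159 CPM in old libraries, ranges that overlapped almost entirely. The part of RNA from other cells in these lists was not tested. Among further B cell lists the medians were -0.12 (immediate early and stress genes), -0.23 (transitional B cells), 0.11 (germinal centre and proliferation), 0.40 (plasma cells) and 0.10 (immunoglobulin constant genes). In the list of cell cycle inhibitors and senescence genes the median was 0.24 over 16 genes, 13 of them above 0, and 3 were higher and 0 lower at an unadjusted p under 0.05, namely Cdkn1b (0.24), Ccng1 (0.54) and Ccnd3 (0.49). Among further lists of other cells they were -0.31 over 7 endothelial genes, -1.51 over 3 neutrophil genes, 0.78 over 3 plasma cell genes and 0.05 over 2 T and NK cell genes, and the 1 dendritic cell gene tested had -0.15. No gene of these 5 lists had an unadjusted p under 0.05.

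**Figure D5:**
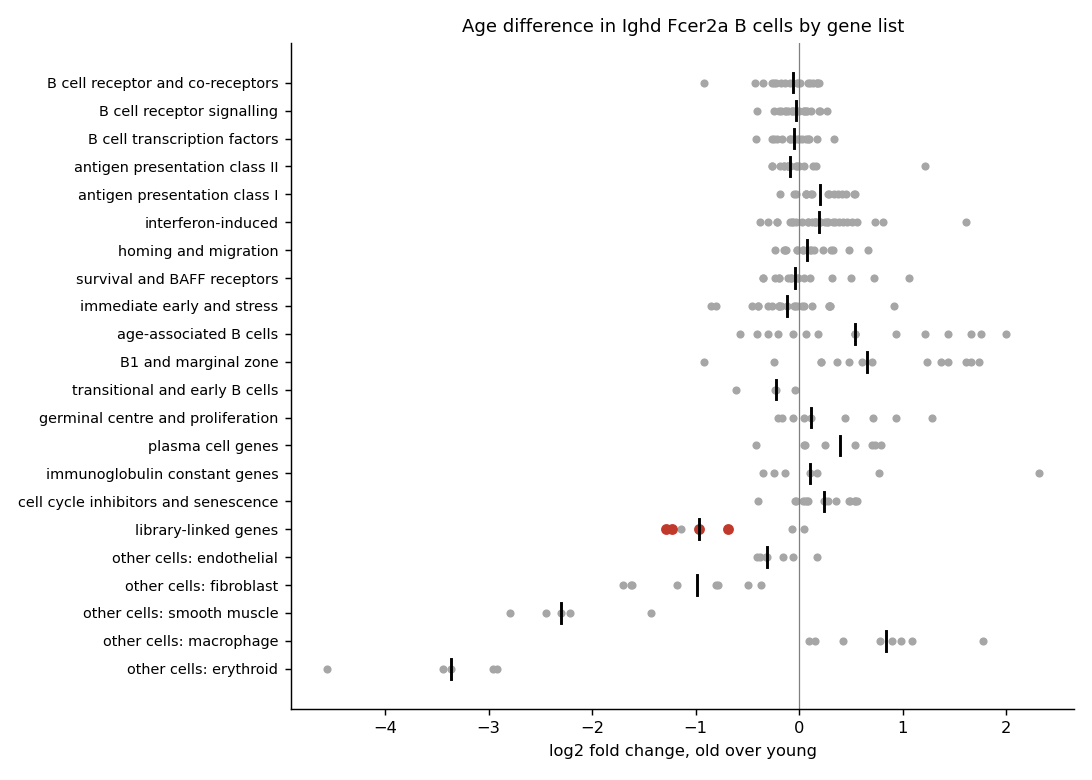
Log2 fold change of old over young in Ighd Fcer2a B cells by gene list. Grey points are genes tested, red points are called genes and black bars are list medians; the called genes of these lists are Cmss1, Cdk8, Lars2 and Camk1d, in the list of library-linked genes.

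Fisetin gave no called gene in Ighd Fcer2a B cells by edgeR with the filter on low counts, all libraries and all UMIs. Between O FIS and O VEH 0 of 9448 genes were called (0.0%), 493 (5.22%) had an unadjusted p under 0.05, and DESeq2 called 0. Between Y FIS and Y VEH 0 were called (0.0%), with 437 (4.63%) at an unadjusted p under 0.05 and 8 called by DESeq2. Between O FIS and Y VEH 0 were called (0.0%), with 767 (8.12%) at an unadjusted p under 0.05 and 40 called by DESeq2. The fisetin difference differed between ages for 0 genes (0.0%), with 526 (5.57%) at an unadjusted p under 0.05 and 8 called by DESeq2. Without the filter on low counts edgeR called 99 genes between O FIS and O VEH, 141 between Y FIS and Y VEH, 197 between O FIS and Y VEH and 102 for the difference between ages. Without Y FIS F2, 3 genes were called between Y FIS and Y VEH, and without O FIS F1, 4 between O FIS and Y VEH. With cells thinned to 1000 UMIs, 1 gene was called between O FIS and Y VEH and 1 for the difference between ages.

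The genes with the smallest p in old mice are given as values. Cmss1 had 2075, 1046, 1445 and 1768 CPM in O FIS F1, F2, M1 and M2, so that O FIS F2 overlapped O VEH (log2 fold change 0.90, SE 0.21, edgeR adjusted p = 0.917). Krtcap2, a subunit of the oligosaccharyltransferase that N-glycosylates proteins, had 224 ± 13.9 CPM in O FIS and 156 ± 10.1 CPM in O VEH, without overlap (log2 fold change 0.51, SE 0.13, edgeR adjusted p = 0.917). Zfp451 had 34.3 ± 7.68 against 15.2 ± 2.42 CPM. Lower in O FIS were Arsb, the lysosomal arylsulfatase B (18.2 ± 2.44 against 33.3 ± 11 CPM), Cebpzos (23.6 ± 4.75 against 43.3 ± 5.29 CPM) and the glypican gene Gpc6 (3.62 ± 3.57 against 31.1 ± 13 CPM).

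In young mice the smallest p-values belonged to Emcn, an endothelial sialomucin gene (16.6 ± 6.05 CPM in Y FIS against 5.81 ± 0.681 in Y VEH), the lymphoid chemokine gene Ccl21a (23.7 ± 24.0 against 1.31 ± 0.533 CPM) and Cavin2, a gene of caveolae (29.5 ± 17.1 against 13.8 ± 0.994 CPM). In the other direction they belonged to S100a6 (114 ± 44.7 against 794 ± 752 CPM), the adaptor gene Tyrobp (45.5 ± 11.2 against 92.9 ± 25.4 CPM) and the stress-induced transcription factor gene Atf3 (1.73 ± 1.33 against 14.8 ± 15.4 CPM). Of 7 endothelial genes, 3 were higher in Y FIS at an unadjusted p under 0.05 (median 0.51, all 7 above 0), where 1.8% of all genes were higher, with summed levels of 667 to 883 CPM in Y FIS and 494 to 721 CPM in Y VEH. S100a6 rests on Y VEH F1 and Y VEH M2. Of 16 age-associated B cell genes, 7 were lower in Y FIS at an unadjusted p under 0.05 with a list median of -1.19, where 2.83% of all genes were lower at that level. Summed over the 20 genes of that list, S100a6 included, the cells had 4364 CPM in Y VEH F1 and 2969 CPM in Y VEH M2, while Y VEH F2 (1202 CPM) and Y VEH M1 (970 CPM) lay beside the Y FIS libraries (890 to 1127 CPM). The high sums of the list were those of the libraries that were high in S100a6. Of 8 macrophage genes 3 were lower in Y FIS at an unadjusted p under 0.05 (median -1.55), with a summed level of 1169 CPM in Y VEH F1, 212 to 438 CPM in the other Y VEH libraries and 196 to 468 CPM in Y FIS. Of 3 neutrophil genes 1 was lower (median -2.49), with 1462 CPM in Y VEH M1, 4.20 to 7.61 CPM in the other Y VEH libraries and 0 to 322 CPM in Y FIS. The part of RNA from other cells was not tested.

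Between O FIS and Y VEH, Gm15675 (87.7 ± 29.8 against 49.8 ± 6.78 CPM) and Mir142hg, the host transcript of a blood cell microRNA (700 ± 174 against 426 ± 44.3 CPM), were among the higher genes by p, as was ENSMUSG00000079808, a gene without a symbol (34.4 ± 40.4 against 1.68 ± 1.2 CPM). Lars2 (149 ± 44.1 against 278 ± 20.6 CPM), Cmss1 (1583 ± 441 against 3176 ± 233 CPM) and Gm57072 (5.85 ± 3.45 against 22.8 ± 5.05 CPM) were the lower ones. In all 6 the libraries of O FIS and Y VEH did not overlap, but none was called. They were picked by their p, which favours genes without overlap, and the share of such genes among all tested was not computed. For the difference in the fisetin effect between ages, the smallest p-values belonged to Krtcap2 (0.72), Igkc, the kappa light chain constant region (1.04), Cmss1 (1.20), Gpc6 (-4.52), Tnpo1 (-0.75) and Elk3 (-1.05), as log2 values with an edgeR adjusted p of 0.869. Summed immunoglobulin constant genes were highest in O FIS F1 (26060 CPM), and the part of that library in the Igkc value was not tested.

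The age difference was next compared with that in T cells of the same libraries, defined as cells with a UMI of at least 2 of 5 T cell genes and of no B cell gene. It differed between both populations for 92 of 10916 genes (0.843%), with 39 above and 53 below in Ighd Fcer2a B cells, and for 36 (without O FIS M1) to 126 genes with 1 library left out. Ccr7 had 95.9 ± 40.6 CPM in old and 88.3 ± 43.0 CPM in young Ighd Fcer2a B cells, and 38.1 ± 18.2 against 104 ± 27.3 CPM in T cells (difference of the log2 changes 1.57, SE 0.31, edgeR adjusted p = 0.02). Foxp1 had 2444 against 2183 CPM in old and young Ighd Fcer2a B cells and 675 against 1021 CPM in T cells (0.75, SE 0.16, edgeR adjusted p = 0.0276), a call lost in 7 of 18 alternatives, with an edgeR adjusted p of up to 0.0728 with 1 library left out. Bach2 had 273 against 505 CPM in old and young T cells (0.87, SE 0.17, edgeR adjusted p = 0.02).

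The reverse pattern was found for Rasgef1b, a guanine nucleotide exchange factor gene, with 78.6 against 116 CPM in old and young Ighd Fcer2a B cells and 109 against 17.9 CPM in T cells (-3.30, SE 0.23, edgeR adjusted p = 9.76e-08). Pik3ap1, an adaptor between the B cell receptor and PI3 kinase, had 183 against 248 CPM in Ighd Fcer2a B cells and 34.9 against 11.3 CPM in T cells (-2.19, SE 0.37, edgeR adjusted p = 0.0061). St8sia6, a sialyltransferase gene, had 99.95 against 47.3 CPM in old and young Ighd Fcer2a B cells and 7.80 against 40.0 CPM in T cells (2.91, SE 0.49, edgeR adjusted p = 0.0061).

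Against other B cells the age difference differed for 19 of 10959 genes (0.173%), with 6 above and 13 below in Ighd Fcer2a B cells. Vav3, a guanine nucleotide exchange factor of B cell receptor signalling, had 49.4 to 151 CPM in old and 43.3 to 109.5 CPM in young Ighd Fcer2a B cells. In other B cells it had 3.63 to 21.2 CPM in old and 18.6 to 57.7 CPM in young libraries, with a difference of the log2 changes of 1.99 (SE 0.29, edgeR adjusted p = 0.0166). Bach2 had 501 ± 160 CPM in old and 942 ± 297 CPM in young other B cells (0.95, SE 0.19, edgeR adjusted p = 0.0496). Golm2 had 22.7 against 13.1 CPM in old and young Ighd Fcer2a B cells and 6.10 against 12.1 CPM in other B cells (1.76, SE 0.34, edgeR adjusted p = 0.0496), and Pgap1, which remodels GPI anchors, had 240 against 196 CPM and 67.6 against 90.6 CPM (0.81, SE 0.15, edgeR adjusted p = 0.0436). The other B cells of old libraries also held more cells with neither Ighd nor Fcer2a, and the part of that makeup in these differences was not tested. The count was 1 with another normalization (RLE) and 0 to 61 with 1 library left out. Vav3 lost its call in 1 of 18 alternatives, Pgap1 in 11, Bach2 in 12 and Golm2 in 13.

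Cdkn2a, which encodes the cell cycle inhibitor and senescence marker p16, was rare in these cells (chr4:89192708-89212890, minus strand). It had a UMI in 7 of 827 old cells (0.846%, 95% exact binomial interval 0.341 to 1.74%) and in 4 of 3125 young cells (0.128%, 0.0349 to 0.327%), intervals that cover counting error only. Of the 7 old cells, 5 came from the 65 cells of O VEH F1 and the others from O FIS F1 and O FIS F2. The mean of the library shares was 1.61% ± 2.90 in old and 0.139% ± 0.26 in young libraries (exact permutation test, p = 0.16, adjusted p = 0.286). In other B cells a Cdkn2a UMI was found in 490 of 3990 old cells (12.3%) and 43 of 3727 young cells (1.15%), and in T cells in 3.14% of old and 0.497% of young cells. The other B cells of O FIS M2 had 1 of 403 (0.248%), within the range of 0 to 2.80% in young libraries, while the other old libraries had 8.15 to 18.8%. Old other B cells were also deeper, with medians of 6645 to 14879 UMIs a library against 2578.5 to 10227 in young. Thinned to 1000 UMIs, 53 of 3954 old (1.34%) and 2 of 3653 young (0.0547%) other B cells had a Cdkn2a UMI. Of thinned Ighd Fcer2a B cells, 1 of 827 old (0.121%) and 0 of 3124 young cells had one. Of thinned T cells, 0.294% of old and 0.0671% of young cells did. Over both ages the thinned shares were 0.0253% of Ighd Fcer2a B cells, 0.723% of other B cells and 0.159% of T cells, populations that differ in their part of old cells. The age difference in Ighd Fcer2a B cells minus that in other B cells was 0.36 on the log2 scale (SE 0.79, edgeR adjusted p = 0.943).

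The receptors of the chemokine CXCL12 were also measured. Cxcr4, its signalling receptor, had 17.7 to 60.1 CPM over the 15 libraries and a UMI in 21.1% of the cells (old over young log2 fold change 0.04, SE 0.20, edgeR adjusted p = 0.994). Ackr3, its scavenging receptor, had 0 to 27.7 CPM and a UMI in 3.57% of the cells (0.23, SE 0.47, edgeR adjusted p = 0.925).

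Between 8 female and 7 male libraries 8 genes were called (0.0847%). Xist, the RNA that silences an X chromosome, had 595 to 722 CPM in female and 0 to 1.70 CPM in male libraries, so that each library matched its label. Tsix, the X-linked Kdm6a (138 ± 13.3 against 80.7 ± 12.5 CPM) and Gm47283 (192 ± 33.7 against 94.4 ± 25.7 CPM, named after its values had been seen) were higher in females. The Y-linked genes Uty, Kdm5d, Eif2s3y and Ddx3y were higher in males, with 25.2 to 89.1 CPM on average against 0.106 to 0.814 CPM in females.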

How the data were processed

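UMI counts of single cells were measured in 15 libraries of mouse aorta (10x Genomics 3′ chemistry). The authors deposited raw counts per gene and cell barcode, without normalization, and their processing notes name Cell Ranger 8.0.1, Seurat 5.2.0 and GRCm39. The libraries held 48272675 to 73722809 UMIs. Barcodes with 200 to 7000 genes and at most 25% mitochondrial UMIs were kept, 128019 of 130551. No doublet caller was run. The rule left out cells with a UMI of Cd3e, Cd3d, Cdh5 or Csf1r or over 1 UMI of Lum and Pdgfra, not cells with other RNA of those types or doublets of 2 B cells, and 71 of the chosen cells had over 20000 UMIs. A planned further filter on markers of other cells left 5 cells and was replaced by one that left 3737.

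Counts were summed per library and tested with edgeR 4.0.16 (quasi-likelihood, terms for group and sex, all 15 libraries, TMM, edgeR's filter on low counts, Benjamini-Hochberg over all genes tested without the 13 genes of the rule). Differences from T cells and other B cells had the library as a block. The common biological coefficient of variation was 0.191. Shares had exact permutation tests over libraries, two-sided. DESeq2 1.42.0 was an alternative, as were RLE normalization, no gene filter, no sex term, a stricter choice of cells, thinning, the replicate number as a block and each library left out. The edgeR step was tested on simulated data with known fold changes. The tools were R 4.3.3, Python 3.11.15, numpy 2.4.6, scipy 1.17.1 and pandas 2.3.3.

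Genes named were the called genes whose libraries did not overlap (up to 6 a direction), called genes of the lists, with fewer than 3 calls the 3 smallest p in each direction, the genes of the rule, the CXCL12 receptors and Cdkn2a. The cells, gene lists and tests were chosen with earlier results of these data known. The list of library-linked genes, which holds Cmss1, Cdk8, Lars2 and Camk1d, was drawn up from genes known to vary between these libraries, so its calls are not independent evidence. Some genes that the naming rule or the marker lists hold are not reported here.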

Additional observations from a re-analysis of the deposited data

Results flagged for a closer look

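Among 32 sets of library values tested for a single distant sample, 2 had one, where chance gives about 1 in 20. The share of Ighd Fcer2a B cells among B cells was 22.8% in Y VEH F1, far below the other 3 Y VEH libraries. The lambda share was 8.60% in O FIS M1, far above the other 3 O FIS libraries.

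The age difference in Ighd Fcer2a B cells differed from that in T cells of the same libraries, by edgeR's test of the difference, for 24 named genes. The difference of the log2 changes was above 0 for St8sia6 (2.91), Gm56906 (1.59), Ccr7 (1.57), Rflnb (1.38), Spn (1.37), H2-Ob (1.33), Stoml1 (1.31), Abca3 (1.25), Id3 (1.02), Bach2 (0.87), Jun (0.76), Foxp1 (0.75) and Pecam1 (0.63). It was below 0 for Hbb-bt (-7.72), Epha3 (-3.58), Rasgef1b (-3.30), Gm15987 (-3.00), Gm15345 (-2.28), Chst11 (-2.26), Pik3ap1 (-2.19), Cd38 (-1.16), Bcl2a1b (-1.07), Ikzf3 (-0.70) and Inpp5d (-0.60). The call was lost in 11 of 18 alternatives for Inpp5d, in 10 for Id3, Ikzf3, Jun, Pecam1 and Spn, in 7 for Foxp1, in 7 of 16 for Gm15345, in 6 for Cd38 and in 5 for Stoml1. It was lost in 1 to 4 for Ccr7, Hbb-bt, Abca3, Bach2, Rflnb and Bcl2a1b, and in 0 of 18 for the others. The erythroid gene Hbb-bt had 3.09 to 1399 CPM in young and 5.79 to 44.7 CPM in old Ighd Fcer2a B cells.

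Against other B cells the age difference differed for 7 named genes. The difference of the log2 changes was 1.99 for Vav3, 1.76 for Golm2, 0.95 for Bach2, 0.81 for Pgap1, -1.02 for A930007I19Rik, -0.90 for Borcs7 and -0.74 for Alg5. The call was lost in 1 of 18 alternatives for Vav3 and in 11 to 15 for the other genes.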

How the results depend on the processing

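Counts of called genes were small and moved with the settings. Without the filter on low counts they were 297 (O VEH against Y VEH), 99 (O FIS against O VEH), 141 (Y FIS against Y VEH), 197 (O FIS against Y VEH), 424 (old against young), 278 (female against male), 102 (fisetin by age), 476 (age, minus T cells) and 495 (age, minus other B cells). DESeq2 called 82, 0, 8, 40, 103, 16 and 8 genes in the first 7 of these. For O VEH against Y VEH, 6 were called with stricter cells, with thinning and without cells bearing markers of other types. Old against young gave 11 calls with RLE normalization, with no sex term and among genes not far below their level outside lymphocytes. That last filter still let through genes that were higher outside lymphocytes. The same comparison gave 12 calls with thinning and 14 without cells bearing markers of other types. With thinning 1 gene was called for O FIS against Y VEH and for fisetin by age. Minus other B cells, RLE gave 1 and stricter cells 46. Cells bearing other markers, the level outside lymphocytes, the omission of small libraries and 3000 UMIs were alternatives chosen after seeing the data.

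With 1 library left out, calls ran from 2 to 15 (O VEH against Y VEH), 0 to 0 (O FIS against O VEH), 0 to 3 (Y FIS against Y VEH), 0 to 4 (O FIS against Y VEH), 3 to 49 (old against young), 8 to 11 (female against male), 0 to 0 (fisetin by age), 36 to 126 (minus T cells) and 0 to 61 (minus other B cells). For O VEH against Y VEH it was 15 without O VEH M1, 9 without O FIS F2, 8 without Y VEH M1 and 6 without Y FIS M1. For old against young it was 49 without O FIS F1, 39 without O VEH M1, 13 or 14 without O VEH F2, Y VEH M1 or Y VEH M2, and 3 or 4 without any one of 8 others. The 4 calls of O FIS against Y VEH came without O FIS F1 and the 3 of Y FIS against Y VEH without Y FIS F2. Minus T cells it was lowest without O FIS M1 (36), and minus other B cells it was 61 without O FIS M2, 59 without Y VEH F1, 43 without O VEH F1 and 0 without O VEH M1. Differences of shares, old minus young, ran from -3.76 to -2.30 of all cells, -30.2 to -24.1 of B cells, -3.91 to -2.37 for lambda and 0.459 to 1.74 for Cdkn2a. For O VEH minus Y VEH they ran from -6.33 to -3.27, -36.3 to -24.4, -0.854 to 1.13 and -0.279 to 3.57. Both the Cdkn2a and the lambda difference of O VEH minus Y VEH changed sign without O VEH F1.

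As log2 shares the O VEH minus Y VEH difference of all cells was -2.54 (exact permutation p = 0.0286) and the lambda difference with age -0.68 (exact permutation p = 0.0427), and without O VEH F1 the latter was -3.91 percentage points (exact permutation p = 0.00133). Without libraries under 100 cells, the age difference was -2.51 of all cells (exact permutation p = 0.212) and -4.59 for lambda (exact permutation p = 0.0121). The lambda difference of O VEH minus Y VEH was -10.1 with thinning to 1000 UMIs, which left 259 cells. The cause of these changes was not tested.

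Cmss1 and Cdk8 were called between old and young under all 26 alternatives, Lars2 under 25, Gm56906 under 14, Camk1d under 13 and Stoml1 under 10 of 26, and Ccl8 under 10 of 20. In 1019 alternatives for the named called genes of all comparisons the call was lost in 234, with the direction unchanged in each. Deviations of same-numbered libraries from their group means had correlations from -0.227 to 0.263 (21 pairs, 4 over 0.1). Deviations from means of so few libraries cannot exclude a pairing, and the numbers were not used as one in the main fit. With the replicate block, calls were 3, 0, 0 and 0 for the 4 group comparisons, 5 for old against young and 0 for fisetin by age. Old groups rest on 33 to 255 cells a library, which limits what low genes can show.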
